A study of Mus musculus with 6 samples.

Results

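Antigen presentation by MHC class II molecules was followed here through 10 genes of 32285 in the deposited gene list: H2-Aa, H2-Ab1 and H2-Eb1, H2-DMa, H2-DMb1 and H2-DMb2, H2-Oa and H2-Ob, Cd74 and Ciita. The genes were chosen by name, and all 10 had UMIs (unique molecular identifiers, each standing for 1 captured RNA molecule) in the libraries. Their UMIs were summed in each library over the cells of 8 lineages: B cells, conventional dendritic cells of type 1 (cDC1) and type 2 (cDC2), mature dendritic cells (DC), macrophages, monocytes, melanoma cells and fibroblasts. CD45+ cells were enriched from tumors of B16-F10, a mouse melanoma line, grown in female C57BL/6 mice of 6 to 10 weeks of age, and read by droplet scRNA-Seq. In both groups, mice received 150 µg of anti-PD-1 antibody (αPD-1) 3 times per week from day 7. The αPD-1 + corin group also received 200 µg of corin daily from day 6, and the αPD-1 group received its vehicle. Corin inhibits LSD1 and HDAC1 within the CoREST repressor complex. Each group has 3 samples (replicates 1 to 3) from an arm of 10 mice. Which mice gave a sample is not in the labels, so the p-values measure the spread between these samples, which may be technical. The question is in which cells the class II genes were expressed, and whether their level in a cell type differed when corin was added to αPD-1.

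Class II molecules are pairs of an α and a β chain that show peptides from endocytosed proteins to CD4+ T cells, and professional antigen-presenting cells (dendritic cells, B cells and activated macrophages) carry them. H2-Aa and H2-Ab1 encode the chains of I-A, and H2-Eb1 encodes the β chain of I-E, whose α chain is not made in C57BL/6 mice. Cd74 encodes the invariant chain, which fills the groove until the peptide exchange factor H2-DM (H2-DMa with H2-DMb1 or H2-DMb2) replaces its last fragment, and H2-DO (H2-Oa with H2-Ob) restrains H2-DM, mostly in B cells. Ciita encodes the coactivator that sets the transcription of all of these genes and is itself inducible by interferon γ.

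The libraries held 6433 to 13228 barcodes and 52281422 to 84276739 UMIs each, with a median of 2400 to 3114 UMIs per barcode, and 3655 to 7869 cells per library passed the filters. Library pairs shared 10 to 32 barcodes, at most 0.457% of the smaller library. Cell types were rebuilt by clustering without the 10 genes and without the marker genes, and "-like" marks a name given from fixed marker lists. Differences from the study's own annotation may come from these rebuilt names. In the lineages the markers were present as named, with reservations. Melanoma-like and fibroblast-like cells remained although CD45+ cells had been enriched. Monocyte-like cells also met 6 of 10 macrophage markers, and macrophage-like clusters 4 and 5 met 5 and 4 of 8 monocyte markers. Of the 2 cDC1-like subclusters, the larger (307 cells) also met 3 of 8 B cell markers, with T and B cell markers together in 5.54% of its cells, and the smaller (128 cells) was led by proliferation genes (Mki67, Top2a). A cDC2-like subcluster of 35 cells met 3 of 7 markers of plasmacytoid DC (pDC), and fibroblast-like cells met 3 of 9 mature DC markers. αPD-1 + corin replicate 3 stood apart from replicates 1 and 2 of its group: it had 11 B-like and 4 mature DC-like cells, and neutrophil-like cells were 1.67% of its cells against 8.35% and 30.4%. Results are therefore also given without it where it changes a call.

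Of the 10 genes, 8 lie on chromosome 17 within the class II region (GRCm39), in the order H2-Oa, chr17:34311314-34314328 (plus strand), H2-DMa, chr17:34338515-34358958 (plus strand), H2-DMb2, chr17:34362197-34370529 (plus strand), H2-DMb1, chr17:34372046-34379204 (plus strand), H2-Ob, chr17:34457836-34473388 (plus strand), H2-Ab1, chr17:34476663-34488393 (plus strand), H2-Aa, chr17:34493404-34506798 (minus strand), and H2-Eb1, chr17:34504236-34535648 (plus strand). In the GENCODE gene annotation used here for positions, the ends of H2-Aa and H2-Eb1 overlap on opposite strands. The deposited gene list carries older gene symbols, so the annotation used for counting may differ from this one. The sources used here do not say whether counting used strand. Reads from the stretch that H2-Aa and H2-Eb1 share could therefore belong to either gene. Ciita lies at chr16:10297923-10347694 (plus strand), and Cd74 is also outside this region. H2-DMb1 and H2-DMb2 share 209 exact 90-base stretches of transcript (13.2% of those of H2-DMb1 and 10.3% of those of H2-DMb2), so the split of reads between these 2 genes is uncertain, and no other pair of the 10 genes shares any.

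Class II promoters carry a conserved pair of boxes, X and Y, on which RFX, CREB and NF-Y assemble and recruit CIITA. The promoters are printed to show where these boxes lie in the genes for which a sequence was at hand. RefSeq promoter sequences (250 bases before to 50 bases after the gene start, table of build GRCm38.p6) were at hand for 7 of the 10 genes, and those for H2-Ab1, Cd74 and Ciita were not used here. The Y box core TGATTGG was found in 6 of these genes, against 7.82% of 32851 promoters on either strand. The X box, searched on both strands as AAC, any 2 bases and ATGATG, was found in 4, against 0.137% of promoters, and both occurred together in 9 promoters (0.0274%), among them those of these 4 genes. H2-DMa had neither in its window, which says only that these letters are absent from it. In the 85-base stretches below, 5′ to 3′ on the gene's strand and placed on GRCm39 by exact match, capitals mark the 2 boxes.
H2-Oa, chr17:34311238-34311322 (plus strand): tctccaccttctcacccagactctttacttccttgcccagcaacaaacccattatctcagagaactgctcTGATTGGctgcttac
H2-DMb2, chr17:34364061-34364145 (plus strand): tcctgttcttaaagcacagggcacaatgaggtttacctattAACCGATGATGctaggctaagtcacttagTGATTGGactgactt
H2-DMb1, chr17:34372032-34372116 (plus strand): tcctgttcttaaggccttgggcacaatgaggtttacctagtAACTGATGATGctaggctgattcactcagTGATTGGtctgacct
H2-Ob, chr17:34457750-34457834 (plus strand): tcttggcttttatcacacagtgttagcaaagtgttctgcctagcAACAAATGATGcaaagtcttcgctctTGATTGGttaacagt
H2-Aa, chr17:34506833-34506917 (minus strand): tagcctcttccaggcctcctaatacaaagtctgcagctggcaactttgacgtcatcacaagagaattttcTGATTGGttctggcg
H2-Eb1, chr17:34524710-34524794 (plus strand): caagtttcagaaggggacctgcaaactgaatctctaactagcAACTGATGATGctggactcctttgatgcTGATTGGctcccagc
The boxes were separated by 18 bases in H2-DMb2 and H2-DMb1, 15 bases in H2-Ob and 17 bases in H2-Eb1. In H2-Oa and H2-Aa only the Y box core was matched. The stretches of H2-DMb2 and H2-Eb1 lie inside the annotated span of their genes.

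The level of the 10 genes separated the lineages into tiers (the plot of levels by lineage). Levels are given in CPM (the UMIs of a gene scaled to a fixed total of all UMIs of that lineage in that library), as mean ± SD over the 6 libraries of both groups. Summed over the 10 genes, the level was 45478 ± 3316 CPM in cDC1-like cells, 45209.6 ± 12910.0 in cDC2-like cells, 33584 ± 9263 in mature DC-like cells, 23136 ± 3583 in B-like cells and 16446 ± 6630.3 in monocyte-like cells. The range over libraries overlapped between each of these lineages and the next in this order, so the order of neighbors does not go beyond the spread between libraries, while all cDC1-like and cDC2-like values lay above all B-like and monocyte-like values. Macrophage-like cells followed at 7382 ± 2308 CPM, with every value below every monocyte-like value. Fibroblast-like cells held 521 ± 457 CPM and melanoma-like cells 388 ± 309 CPM, without overlap with macrophage-like cells and with overlap between each other. These levels are a description, and no test was made between lineages.

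**Figure D1:**
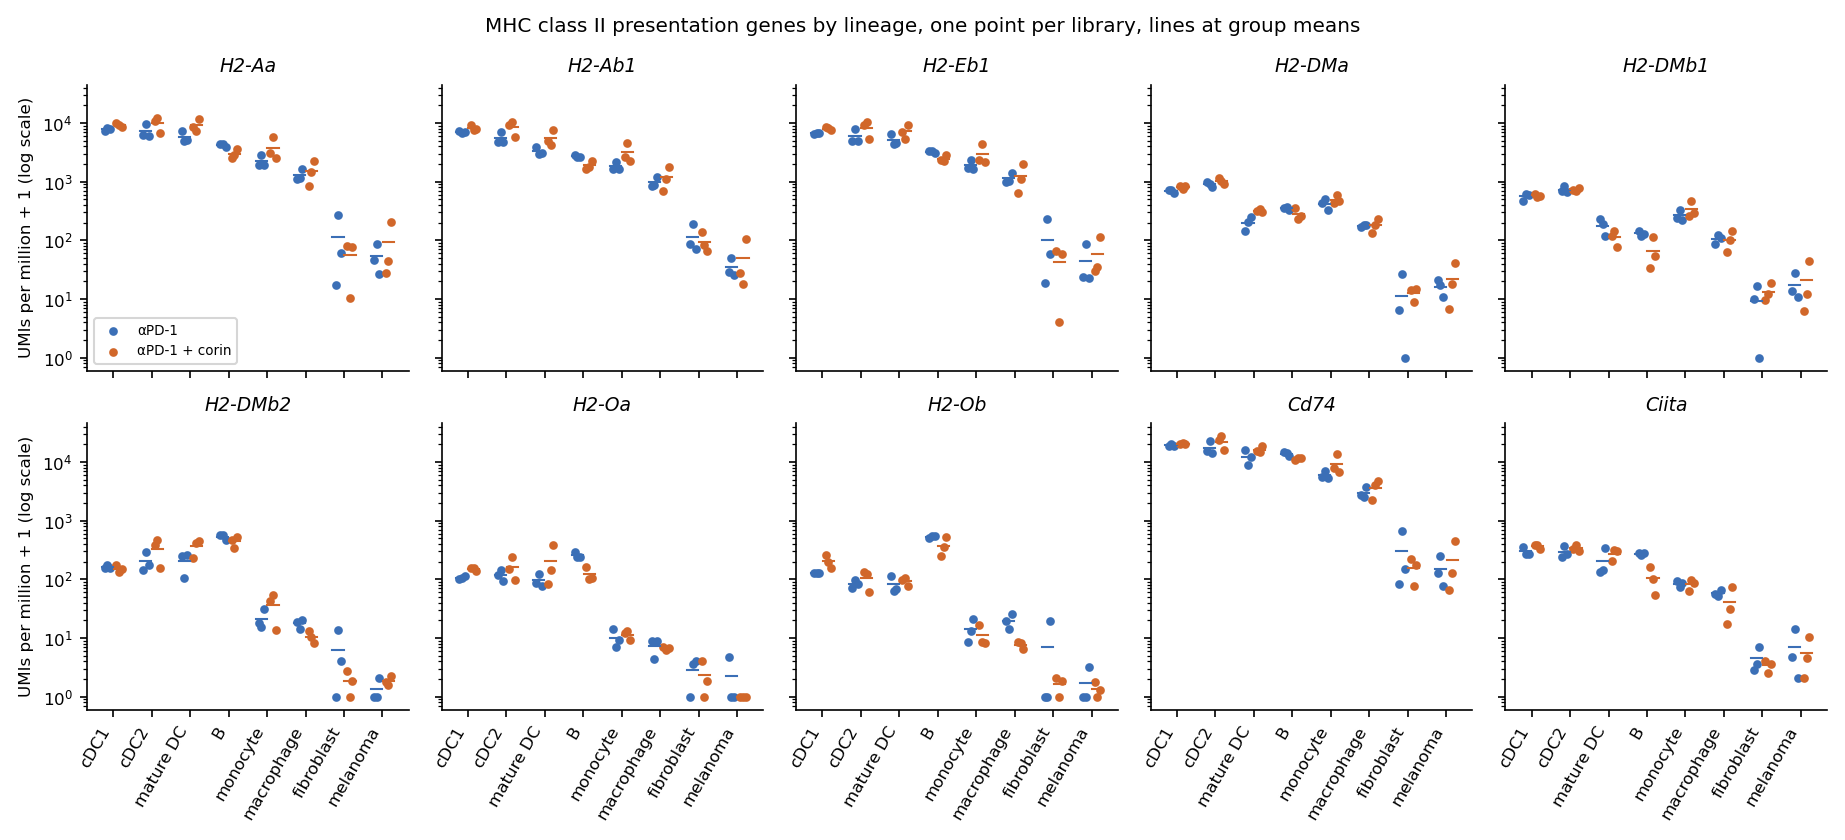
Level of each of the 10 class II genes by lineage, in CPM + 1 on a log axis, with 1 point per library (αPD-1 and αPD-1 + corin in separate colors) and lines at the group means. The dendritic lineages and B-like cells sit at the top, and melanoma-like and fibroblast-like cells at the bottom. H2-DMb2, H2-Oa and H2-Ob have their highest mean in B-like cells.

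The genes for the surface chains had this order apart from exchanges between neighbors that overlapped. H2-Aa ranged from 7454 to 9831 CPM in cDC1-like cells, from 5952 to 12358 in cDC2-like cells and from 4919 to 11536 in mature DC-like cells. Its values in B-like cells, 2489 to 4428 CPM, did not overlap with those of the 3 dendritic lineages but did overlap with those of monocyte-like cells (1894 to 5674 CPM). Macrophage-like cells had 843 to 2286 CPM. The mean of H2-Aa was 8617 ± 2651 CPM in cDC2-like and 8580 ± 862 CPM in cDC1-like cells, and for H2-Ab1 the mean was higher in monocyte-like (2492 ± 1088 CPM) than in B-like cells (2302 ± 482 CPM). Cd74, the gene of the invariant chain at chr18:60936899-60945731 (plus strand), was at 19894 ± 5274 CPM in cDC2-like, 19749.5 ± 1013 in cDC1-like, 14293 ± 3374 in mature DC-like, 12669.5 ± 1546 in B-like, 7642 ± 2985 in monocyte-like and 3333 ± 946 in macrophage-like cells.

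The genes of the peptide exchange factor were highest in cDC2-like cells, at 958 ± 113 CPM for H2-DMa and 733 ± 63.8 CPM for H2-DMb1. For H2-DMb1 the cDC2-like values lay above all others, with the cDC1-like values next (571 ± 52.1 CPM). The accessory and restraining genes had another order. H2-DMb2 was highest in B-like cells (491 ± 87.2 CPM), with values that overlapped those of mature DC-like cells (284 ± 128 CPM), and it was at 28.2 ± 16.8 CPM in monocyte-like and 13.1 ± 4.72 CPM in macrophage-like cells. H2-Oa was at 189 ± 77.3 CPM in B-like cells and between 128 and 148 CPM on average in the 3 dendritic lineages, all overlapping in sequence. H2-Ob was at 449.7 ± 123 CPM in B-like, 165 ± 53.6 CPM in cDC1-like, 93.4 ± 28.1 CPM in cDC2-like and 86.5 ± 20.6 CPM in mature DC-like cells. Monocyte-like and macrophage-like cells reached at most 24.7 CPM for H2-Ob and 13.4 CPM for H2-Oa. Ciita, the coactivator, was at 330.4 ± 49.5 CPM in cDC1-like, 318 ± 57.5 in cDC2-like, 240.4 ± 91.7 in mature DC-like and 189.8 ± 98.5 in B-like cells, and at 48.3 ± 21.6 CPM in macrophage-like cells.

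In the tumor and stromal cells, the accessory genes were near the counting limit. Melanoma-like cells had 25.7 to 203 CPM of H2-Aa and 0 to 4 UMIs per library of H2-DMb2, H2-Oa and H2-Ob. A count of 0 allows up to 3 UMIs, which is 0.785 to 8.10 CPM at the depth of these libraries (370295 to 3822703 UMIs), so a low level was not detectable there. Fibroblast-like cells had 9.38 to 269 CPM of H2-Aa, and the limit of 3 UMIs was 0.653 to 9.09 CPM.

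Within a lineage the cells were unequal. The 10 genes took a median of 3.88%, 4.37% and 3.89% of the UMIs of a cDC1-like cell in the αPD-1 libraries and 5.00%, 5.25% and 4.62% in the αPD-1 + corin libraries. In macrophage-like cells the median was 0.206%, 0.171% and 0.229% in the αPD-1 libraries and 0.0704%, 0.253% and 0.525% in the αPD-1 + corin libraries, while the 90th percentile of cells was at 1.56 to 2.69%. Macrophage-like cells with no UMI of any of the 10 genes were 15.5%, 14.5% and 18.2% of the αPD-1 libraries and 27.2%, 15.0% and 6.90% of the αPD-1 + corin libraries. Among cDC1-like and B-like cells such cells were at most 1.89% of a library.

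The balance between paired genes also differed between lineages (the plot of gene ratios). These are shares of the UMIs of 2 genes, to be read across lineages and not as ratios of transcript levels. H2-DMb2 took 75.0 to 93.5% of the H2-DMb1 plus H2-DMb2 UMIs in B-like cells (median 81.3%), and 35.7 to 85.7% in mature DC-like cells (median 67.4%). In B-like cells the αPD-1 values were 78.4 to 82.7% on 1094 to 1338 UMIs. The αPD-1 + corin values there rest on 31, 40 and 11 UMIs. Both ends of the mature DC-like range rest on few UMIs, 14 and 7. The range was 16.4 to 39.5% in cDC2-like, 19.0 to 24.3% in cDC1-like, 4.74 to 17.3% in macrophage-like and 4.05 to 14.1% in monocyte-like cells, so the 6 B-like values lay above all values of these 4 lineages. H2-Oa took 39.2 to 44.9% of the H2-Oa plus H2-DMa UMIs in B-like cells of the αPD-1 libraries and 28.6 to 31.2% in those of the αPD-1 + corin libraries, against 12.4 to 17.2% in cDC1-like and 1.83 to 4.45% in macrophage-like cells. The B-like ratio under αPD-1 + corin rests on 32, 29 and 7 UMIs of H2-Oa and H2-DMa together. H2-DMa was low beside H2-Aa in mature DC-like cells, where it took 1.90 to 4.53% of their joint UMIs against 7.49 to 8.87% in cDC1-like and 7.60 to 13.6% in cDC2-like cells, without overlap. The share of H2-Aa beside Cd74 had medians between 23.1% in B-like and 34.2% in mature DC-like cells across the 6 immune lineages.

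**Figure D2:**
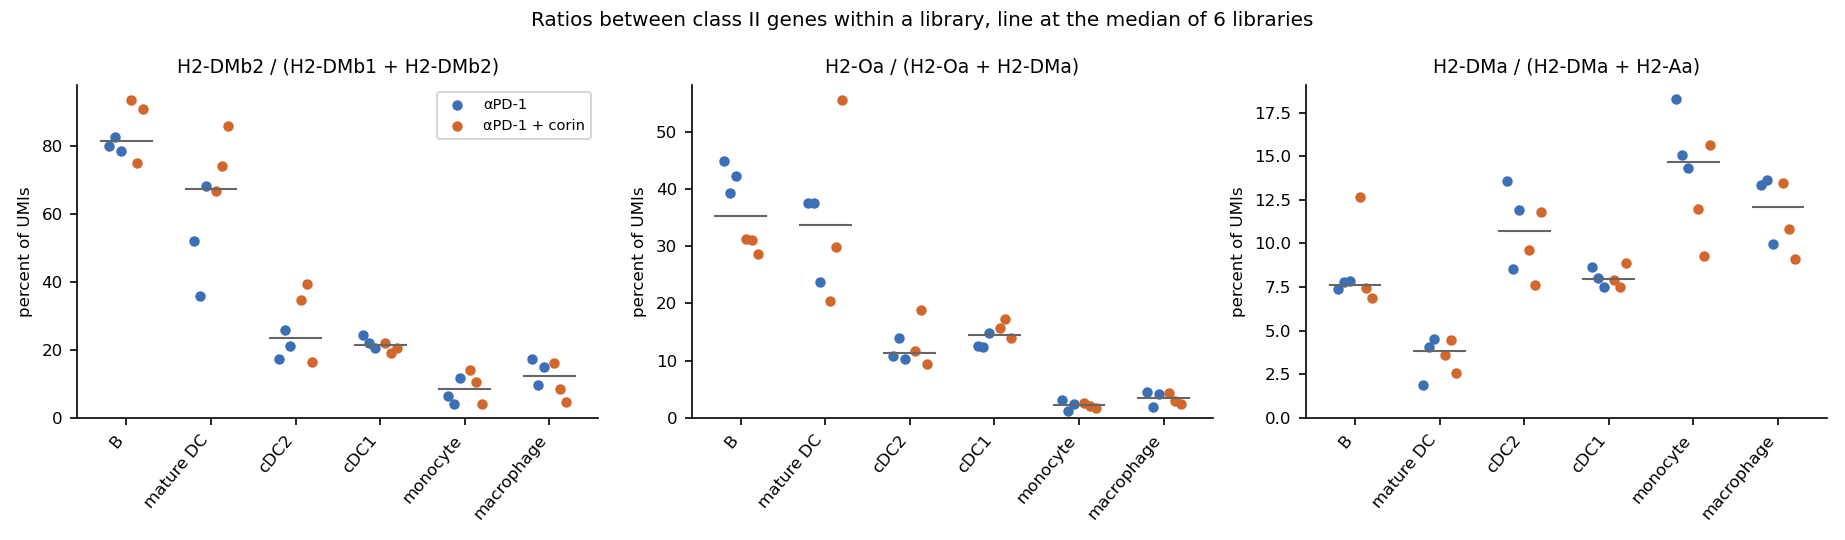
Shares of UMIs between paired class II genes by lineage, in percent, with 1 point per library and lines at the median of 6 libraries. H2-DMb2 takes most of its pair with H2-DMb1 in B-like cells (75.0 to 93.5%) and H2-DMa is lowest beside H2-Aa in mature DC-like cells (1.90 to 4.53%). The B-like H2-DMb2 shares of the αPD-1 + corin libraries rest on 11 to 40 UMIs.

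Of the 10 genes, H2-Aa, H2-Ab1, H2-Oa and Ciita were lower in B-like cells of the αPD-1 + corin libraries than in those of the αPD-1 libraries. B-like cells were 766, 703 and 1064 cells of the αPD-1 libraries and 47, 48 and 11 cells of the αPD-1 + corin libraries, with 19065 to 88402 UMIs in the αPD-1 + corin sums against 1592412 to 2265138 UMIs in the αPD-1 sums, so the values of the treated group are the less precise ones. H2-Aa was at 4428, 4327 and 3882 CPM in the αPD-1 libraries and 2489, 2805 and 3567 CPM in the αPD-1 + corin libraries, 4212 ± 290.3 against 2954 ± 554 CPM (SD, n = 3 each). All 3 treated values lay below all 3 others, and the log2 fold change was -0.67 ± 0.17 (SE, adjusted p = 0.00918 in edgeR's quasi-likelihood test). H2-Ab1, the partner chain, was at 2837, 2631 and 2625 CPM against 1654, 1809.9 and 2255 CPM, again without overlap, with a log2 fold change of -0.65 ± 0.17 and an adjusted p of 0.0156 in edgeR. Ciita was at 275, 264 and 283 CPM in the αPD-1 libraries and 164, 102 and 52.5 CPM in the αPD-1 + corin libraries, where these levels rest on 10, 9 and 1 UMIs. The groups did not overlap, and the log2 fold change was -1.27 ± 0.32 (adjusted p = 0.00993 in edgeR). H2-Oa, a chain of H2-DO, was at 287, 235 and 243 CPM against 164, 102 and 105 CPM (10, 9 and 2 UMIs) without overlap, with a log2 fold change of -1.09 ± 0.32 (adjusted p = 0.0387 in edgeR).

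These 4 of 10 genes passed the threshold of 0.05 in B-like cells, all lower, against 1.69% of 7798 genes tested there that were called lower. The other 6 had negative log2 fold changes that missed the threshold: -0.53 for H2-Eb1 (adjusted p = 0.0685), -0.72 for H2-Ob (0.0704), -0.41 for Cd74 (0.211), -0.82 for H2-DMb1 (0.331), -0.43 for H2-DMb2 (0.359) and -0.38 for H2-DMa (0.547) in edgeR. Cd74 was at 14618, 14385 and 12722 CPM against 10809, 11629 and 11854 CPM. The median log2 fold change of the 10 genes was -0.66, beside -0.17 over all genes tested. Groups did not overlap for 7 of the 10 genes, the exceptions being H2-DMa, H2-DMb2 and H2-Ob. The share of all genes without overlap is not given, so this count is no result about the 10 genes. Every one of 170 log2 fold changes under 17 settings was negative, but the number of calls moved. The settings reuse the same libraries, so these values are not independent of each other. None of the 10 genes was called without αPD-1 replicate 1, at clustering resolution 1.2 or when the 10 genes and the markers were kept in the clustering, and 1 was called without αPD-1 + corin replicate 1. Without αPD-1 + corin replicate 3, H2-Aa, H2-Ab1, H2-Eb1, H2-Ob and Ciita were called lower, when 111 of 9654 genes were. H2-Oa was not called in that setting.

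A pair of clusters made up the B-like cells, and their mix differed between the groups. A cluster led by Pax5, Bank1 and Chst3 (cluster 18) was 18.4%, 19.8% and 14.8% of B-like cells in the αPD-1 libraries and 0%, 4.17% and 0% in the αPD-1 + corin libraries. In that cluster H2-Aa was at 1553, 1662 and 1468 CPM and Ciita at 407, 413 and 513 CPM in the αPD-1 libraries. Within the cluster led by Cd79a, Fcmr and Ms4a1 (cluster 2), tested as an alternative added after seeing the data, 7 of the 10 genes were called lower, against 1.37% of 7285 genes. H2-Aa there had a log2 fold change of -0.85 ± 0.17 (adjusted p = 0.000413 in edgeR), and Cd74, which missed the threshold over both clusters, was called at -0.59 ± 0.17 (adjusted p = 0.0434). The B cell markers differed too, and their summed level was 10334 to 10427 CPM in the αPD-1 libraries and 7448 to 9072 CPM in the αPD-1 + corin libraries, and their part in the result was not tested.

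**Figure D3:**
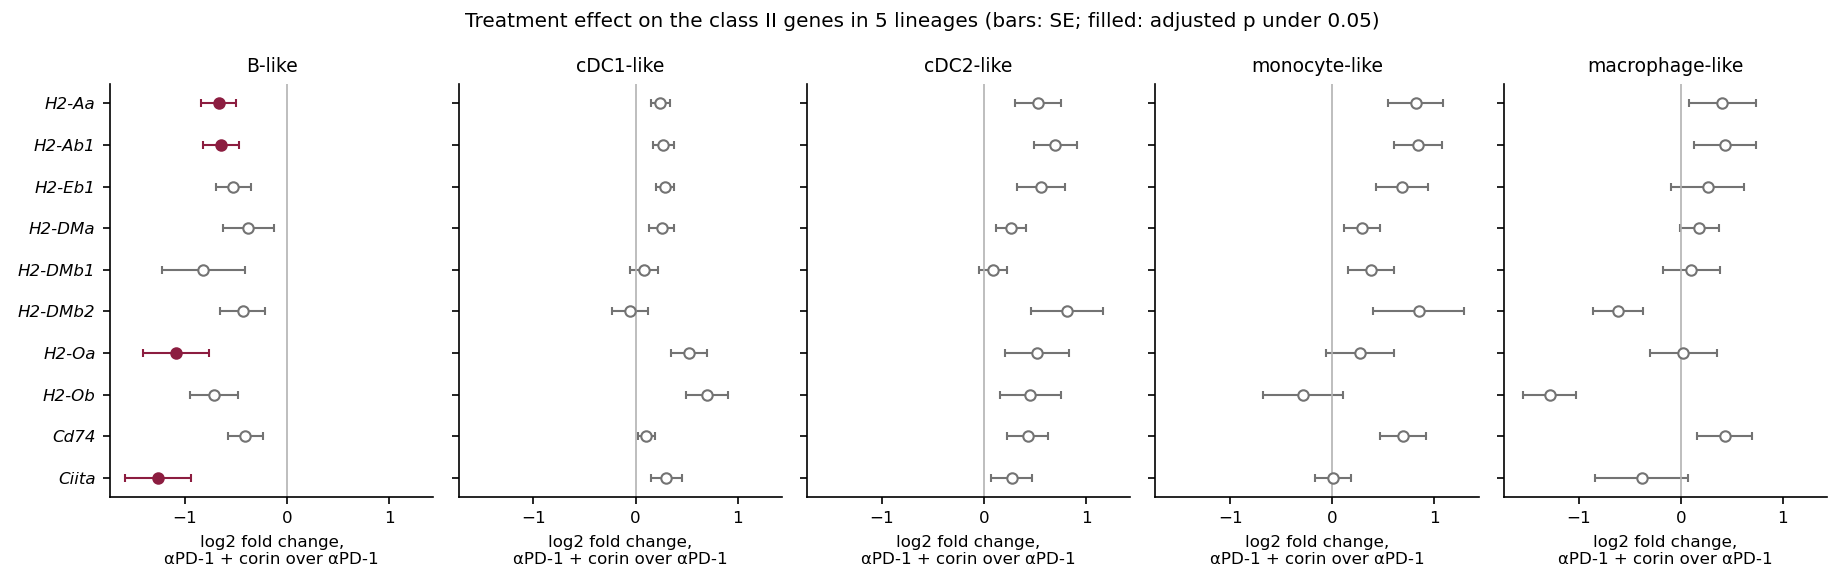
Log2 fold change of each class II gene (αPD-1 + corin over αPD-1) in B-like, cDC1-like, cDC2-like, monocyte-like and macrophage-like cells, with SE bars from edgeR and filled points where the adjusted p is under 0.05. The 10 values in B-like cells lie below 0 and those in cDC2-like cells above 0, and the 4 filled points are in B-like cells.

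In cDC1-like cells 9 of the 10 log2 fold changes were positive and in cDC2-like cells 10 of 10, and none passed the test over all 6 libraries. cDC1-like cells were 57, 38 and 71 cells of the αPD-1 libraries and 127, 53 and 89 cells of the αPD-1 + corin libraries. H2-Eb1 was at 6532, 6818 and 6732 CPM in the αPD-1 and 8399, 8160.0 and 7601 CPM in the αPD-1 + corin libraries without overlap, with a log2 fold change of 0.29 ± 0.09 (adjusted p = 0.178 in edgeR). H2-Ob was at 128, 125 and 129 CPM against 261, 193 and 154 CPM, also without overlap, with a log2 fold change of 0.70 ± 0.21 (adjusted p = 0.161 in edgeR). None of the 10 genes was called in cDC1-like cells by edgeR, where 0.981% of 5711 genes were called in either direction. At an unadjusted p under 0.05 there were 5 of the 10, against 623 of all 5711 genes in edgeR, and DESeq2 called 0. Without αPD-1 + corin replicate 3, H2-Ob was called higher, when 1.08% of genes were. The median over the 10 genes was 0.26 beside -0.0045 over all genes tested. The summed B cell markers in cDC1-like cells were at 596 to 929.8 CPM in the αPD-1 and 7.42 to 74.0 CPM in the αPD-1 + corin libraries, and 31.6 to 46.5% of cDC1-like cells in the αPD-1 and 1.12 to 9.43% in the αPD-1 + corin libraries held a B cell marker UMI. With such cells left out, H2-Ob was at 121, 81.4 and 127 CPM against 269, 193 and 152 CPM.

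cDC2-like cells (57, 35 and 69 cells of the αPD-1 libraries and 202, 60 and 79 cells of the αPD-1 + corin libraries) gave higher means that followed 3 libraries. H2-Ab1 was at 4835, 7039 and 4732 CPM in the αPD-1 libraries and 9405, 10323 and 5778 CPM in the αPD-1 + corin libraries, and H2-DMb2 at 144, 288 and 177 CPM against 379.6, 459 and 155 CPM. In both, αPD-1 replicate 2 and αPD-1 + corin replicates 1 and 2 were the high libraries, as they were for 8 of the 10 genes, so the groups overlapped. The log2 fold changes were 0.70 ± 0.21 (adjusted p = 0.257) and 0.81 ± 0.35 (adjusted p = 0.442 in edgeR). All 10 log2 fold changes were positive, with a median of 0.49 beside 0.00 over all genes, and edgeR called none of them, where 0.207% of 4828 genes were called. At an unadjusted p under 0.05 there were 4 of the 10, against 485 of all 4828 genes in edgeR, and DESeq2 called 0. Without αPD-1 + corin replicate 3, H2-Aa, H2-Ab1, H2-Eb1 and H2-DMb2 were called higher, when 2.79% of genes were. Ciita, at 242, 375 and 272 CPM against 325, 389.6 and 301 CPM, was not among them. Cells with a B cell marker UMI were 23.2 to 26.3% of cDC2-like cells in the αPD-1 and 3.33 to 5.45% in the αPD-1 + corin libraries, and they held 24.0 to 36.1% against 1.39 to 3.93% of the H2-Aa UMIs. With such cells left out, H2-Ab1 was at 4564, 7058 and 4250 CPM against 9507, 10425 and 5948 CPM, its log2 fold change was 0.78 (adjusted p = 0.293 in edgeR), and none of the 10 genes was called.

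Mature DC-like cells were too few in αPD-1 + corin replicate 3 for a test (15, 10 and 31 against 64, 50 and 4 cells). H2-Ab1 was at 3876, 2989 and 3143 CPM in the αPD-1 libraries and 5008, 4235 and 7615 CPM in the αPD-1 + corin libraries, and H2-DMa at 141, 208 and 248 CPM against 322, 339.7 and 302 CPM, both without overlap. The αPD-1 + corin replicate 3 values rest on 4 cells and 13263 UMIs, where 3 UMIs are 226 CPM. Cells with a B cell marker UMI held 24.8 to 78.5% of the H2-Ab1 and 27.6 to 90.0% of the H2-DMa UMIs in the αPD-1 libraries against 0 to 13.6% and 0 to 25.8% in the αPD-1 + corin libraries, and their part in these levels was not tested. Ciita was at 132, 145 and 343 CPM against 205, 316 and 302 CPM and overlapped. With that library left out, edgeR called none of the 10 genes and none had an unadjusted p under 0.05. DESeq2 was not run on this lineage.

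Monocyte-like cells (339, 363 and 465 cells of the αPD-1 libraries and 820, 249 and 435 cells of the αPD-1 + corin libraries) had their highest class II levels in αPD-1 + corin replicate 2. H2-Aa was at 1894, 2802 and 1943 CPM in the αPD-1 libraries and 3129.8, 5674 and 2554 CPM in the αPD-1 + corin libraries, where replicate 2 was the highest and replicate 3 lay below the highest αPD-1 value. H2-Ab1 was at 1631, 2159 and 1674 CPM against 2629.8, 4575 and 2284 CPM without overlap, with a log2 fold change of 0.84 ± 0.24 (adjusted p = 0.094 in edgeR). Cd74 was at 5561, 6968 and 5333 CPM against 7800.3, 13439 and 6753 CPM, with a log2 fold change of 0.69 ± 0.23 and an adjusted p of 0.134 in edgeR. Ciita had a log2 fold change of 0.01 ± 0.18, at 91.0, 73.1 and 86.6 CPM against 62.9, 98.2 and 86.7 CPM. EdgeR called none of the 10 genes, where 1.4% of 8875 genes were called. At an unadjusted p under 0.05 there were 4 of the 10, against 1788 of all 8875 genes in edgeR. DESeq2 called 1, and its share over all genes is not given. The median over the 10 genes was 0.53 beside 0.00 over all genes tested. Without αPD-1 + corin replicate 3, 5 genes were called higher (H2-Aa, H2-Ab1, H2-Eb1, H2-DMb2 and Cd74), when 5.06% of genes were. Macrophage markers in these sums were at 2871 to 4831 CPM in the αPD-1 and 4367 to 9053 CPM in the αPD-1 + corin libraries, and their part in the result was not tested.

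In macrophage-like cells, the lineage with the most cells (876, 850 and 725 cells of the αPD-1 libraries and 4187, 1203 and 1290 cells of the αPD-1 + corin libraries), the class II genes showed no common direction. H2-Aa was at 1105, 1143 and 1617 CPM in the αPD-1 libraries and 843, 1489 and 2286 CPM in the αPD-1 + corin libraries, so the treated group held both the lowest and the highest library. The log2 fold change was 0.41 ± 0.33 (adjusted p = 0.512 in edgeR). Ciita was at 54.8, 50.4 and 64.7 CPM against 16.2, 29.8 and 73.6 CPM, with replicates 1 and 2 of the treated group below and replicate 3 above all αPD-1 values. Cd74 was at 2784, 2522 and 3735 CPM against 2289, 3983 and 4689.6 CPM. EdgeR called none of the 10 genes, where 0.493% of 11556 genes were called. At an unadjusted p under 0.05 there were 2 of the 10, against 2167 of all 11556 genes in edgeR. DESeq2 called 1, and its share over all genes is not given. Without αPD-1 + corin replicate 3, H2-Ob and Ciita were called lower, when 10.8% of genes were. The median over the 10 genes was 0.14 beside 0.01 over all genes tested.

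H2-Ob and H2-DMb2 were the only 2 of the 10 genes without overlap in macrophage-like cells. The share of all genes without overlap is not given there either. H2-Ob was at 18.4, 13.03 and 24.7 CPM in the αPD-1 libraries and 7.43, 7.18 and 5.46 CPM in the αPD-1 + corin libraries, with a log2 fold change of -1.29 ± 0.26 (adjusted p = 0.0816 in edgeR). H2-DMb2 was at 17.7, 13.03 and 19.3 CPM against 12.0, 9.31 and 7.09 CPM, with a log2 fold change of -0.61 ± 0.25 (adjusted p = 0.24 in edgeR). In the αPD-1 libraries most UMIs of these genes lay in cells that also held B cell RNA. Cells with a B cell marker UMI were 16.4 to 21.1% of macrophage-like cells in the αPD-1 and 6.85 to 7.73% in the αPD-1 + corin libraries, and they held 80.8 to 83.9% against 3.33 to 31.9% of the H2-Ob UMIs. For H2-DMb2 they held 73.9 to 82.5% against 5.13 to 24.6%, for H2-Oa 81.2 to 87.1% against 3.23 to 18.8%, and for H2-Aa 29.4 to 43.0% against 9.78 to 11.5%. The summed B cell markers in the macrophage-like sums were at 167 to 350.5 CPM and 32.7 to 48.8 CPM. With cells that held a B cell marker UMI left out, H2-Ob was at 4.47, 2.96 and 6.11 CPM against 6.10, 5.41 and 5.91 CPM and H2-DMb2 at 6.19, 4.44 and 4.37 CPM against 9.97, 7.78 and 7.54 CPM. The log2 fold change of H2-DMb2 was then 0.91 (adjusted p = 0.155 in edgeR), and that of H2-Ob was 0.55 (adjusted p = 0.342 in edgeR, where the adjusted p over all alternatives ranged from 0.00044 to 0.342). H2-Oa was then at 1.38, 0.887 and 1.75 CPM against 5.29, 5.41 and 6.11 CPM, without overlap. The αPD-1 values of H2-Oa lie near the limit of 3 UMIs, 0.631 to 1.02 CPM in the full αPD-1 sums. No setting called H2-Oa in macrophage-like cells (lowest adjusted p 0.0709 over edgeR and DESeq2).

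The macrophage-like cells fell into 6 clusters, whose shares differed between libraries and whose class II levels differed (the plot of macrophage clusters). The cluster led by C1qc and Slamf9 (cluster 0) was 44.2%, 48.2% and 50.1% of macrophage-like cells in the αPD-1 libraries and 16.9%, 22.4% and 45.9% in the αPD-1 + corin libraries. The cluster led by Lyve1 and Cbr2 (cluster 3) was 12.8%, 12.7% and 10.5% against 31.0%, 19.0% and 16.4%, and the cluster led by Ppbp and Ccl24 (cluster 4) was 1.48%, 1.29% and 4.41% against 29.9%, 30.4% and 1.01%. The clusters led by Mmp12 and Fabp5 (cluster 5), Camk1d and Gphn (cluster 16), and Slc8a1 and Pdgfc (cluster 21) made up the rest. Mean H2-Aa over the 6 libraries was 1644 ± 322 CPM in cluster 0, 1518 ± 887 in cluster 3, 1059 ± 475 in cluster 4, 1768 ± 851 in cluster 5, 433 ± 204 in cluster 16 and 515 ± 277 in cluster 21. In cluster 21 Ciita was at 115, 148 and 132 CPM in the αPD-1 libraries and 49.8, 23.3 and 168 CPM in the αPD-1 + corin libraries, with αPD-1 + corin replicate 3 again the highest. Tested within each cluster, as alternatives added after seeing the data, none of the 10 genes was called. At an unadjusted p under 0.05 there were 0 to 3 per cluster, and DESeq2 was not run within clusters. The share of all genes at that unadjusted p is not given.

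**Figure D4:**
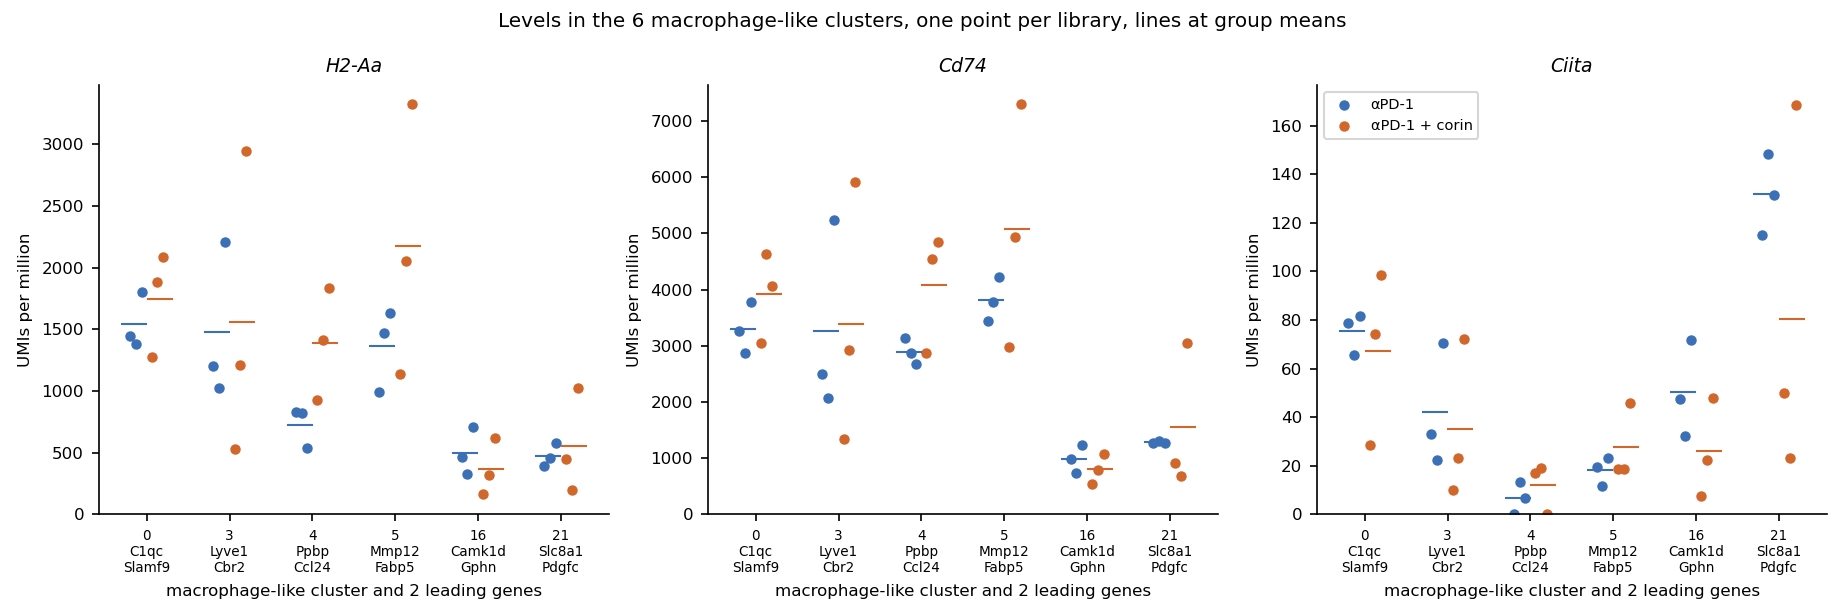
Level of H2-Aa, Cd74 and Ciita in CPM in each of the 6 macrophage-like clusters, named by number and 2 leading genes, with 1 point per library and lines at the group means. H2-Aa is lowest on average in clusters 16 and 21, and Ciita in cluster 21 is lowest in αPD-1 + corin replicates 1 and 2.

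Melanoma-like cells (125, 82 and 165 cells of the αPD-1 libraries and 621, 312 and 566 cells of the αPD-1 + corin libraries) had H2-Aa at 45.1, 86.4 and 25.7 CPM in the αPD-1 libraries and 27.2, 43.4 and 203 CPM in the αPD-1 + corin libraries, and Cd74 at 125, 246 and 76.1 CPM against 63.6, 127 and 445 CPM. αPD-1 + corin replicate 3 was the highest library for 7 of the 10 genes, and for H2-Aa and Cd74 replicates 1 and 2 lay at or below the highest αPD-1 value. Of 6 genes that passed the filter on low counts, edgeR called none, as it called 0.0% of all genes in this lineage, none had an unadjusted p under 0.05, and DESeq2 called 0. The log2 fold changes of these 6 were positive over all libraries and negative without that replicate. Cells with no UMI of any of the 10 genes were 70.4%, 64.6% and 74.5% of melanoma-like cells in the αPD-1 libraries and 87.8%, 76.3% and 38.0% in the αPD-1 + corin libraries. Fibroblast-like cells (64, 39 and 43 cells of the αPD-1 libraries and 607, 79 and 147 cells of the αPD-1 + corin libraries) had H2-Aa at 16.3, 269 and 60.6 CPM against 80.5, 9.38 and 75.8 CPM, with αPD-1 replicate 2 the highest for 6 of the 10 genes. EdgeR called none of 4 genes tested, beside 1.77% of all genes in this lineage, none had an unadjusted p under 0.05, and DESeq2 called 0. Macrophage markers were summed at 621 to 859 and 569 to 1044 CPM in melanoma-like cells and at 128 to 203 and 306 to 498 CPM in fibroblast-like cells of the 2 groups, and their part in these levels was not tested.

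T-like cells, a type that should make little class II RNA in mice, gave the background reading of these genes. They were 688, 685 and 480 cells of the αPD-1 libraries and 72, 193 and 920 cells of the αPD-1 + corin libraries, and the cluster with the most of them was led by Dapl1 (cluster 13) in the αPD-1 and by Gzmb (cluster 6) in the αPD-1 + corin libraries. H2-Ob was at 33.7, 24.3 and 19.0 CPM against 7.82, 1.65 and 3.06 CPM, H2-DMb2 at 25.6, 21.2 and 21.7 CPM against 15.6, 0.823 and 4.21 CPM, and Cd74 at 1296, 846 and 1062 CPM against 626, 592 and 709.9 CPM, all without overlap. These 3 of 10 genes were called lower (log2 fold changes -2.99 ± 0.36, -2.38 ± 0.40 and -0.64 ± 0.17, adjusted p = 9.72e-05, 0.0011 and 0.0145 in edgeR), where 12.6% of 9906 genes were called lower. B cell markers in the T-like sums were at 275 to 417 CPM in the αPD-1 and 13.6 to 46.9 CPM in the αPD-1 + corin libraries. With cells that held a B cell marker UMI left out, none of the 10 was called. Without αPD-1 replicate 2 and without αPD-1 + corin replicate 3, 5 and 6 of the 10 genes were called lower, when 12.9% and 9.5% of genes were.

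The share of cells with a UMI was read against T-like cells, after thinning each cell to 1000 UMIs and leaving out shallower cells (108 and 9 B-like, 22 and 41 macrophage-like and 54 and 4 T-like cells of the αPD-1 and αPD-1 + corin libraries). H2-Aa was seen in 92.0 to 93.3% of B-like cells in the αPD-1 and 85.4 to 99.0% in the αPD-1 + corin libraries, and in 38.2 to 41.5% and 26.6 to 58.8% of macrophage-like cells, against 9.79 to 11.3% and 6.20 to 11.0% of T-like cells. Ciita was seen in 22.7 to 24.6% and 7.86 to 17.5% of B-like, 5.27 to 6.57% and 1.34 to 7.41% of macrophage-like and 0.996 to 1.72% and 0.160 to 1.19% of T-like cells. The B-like shares for Ciita did not overlap between the groups and lay above those of T-like cells. Before thinning, Ciita was seen in 37.9 to 39.9% and 9.09 to 21.3% of B-like cells and H2-Aa in 53.5 to 58.2% and 36.6 to 76.7% of macrophage-like cells. Median depth was 1699 and 1335 UMIs in B-like, 3729 and 3438.5 in macrophage-like and 2253 and 4741 in T-like cells.

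Whether the effect of corin differed between lineages was tested as the difference between a lineage and macrophage-like cells in 1 fit over both. For H2-Aa the difference in log2 fold change was -1.26 ± 0.21 (B-like minus macrophage-like, adjusted p = 1.35e-06 in edgeR), for H2-Ab1 -1.27 ± 0.22 (2.64e-06), for Cd74 -1.11 ± 0.20 (1.08e-05), for H2-Eb1 -0.91 ± 0.21 (0.00286) and for H2-Oa -1.42 ± 0.42 (0.0351). These 5 of 10 genes were called, against 1.98% of 11283 genes called lower. The p-values of this fit track a normal law, so a gene's own spread between the samples had little weight in them. The median difference over all genes was -0.54, beside -1.01 over the 10 genes. DESeq2 called none of the 4 to which it gave an adjusted p (none was given for H2-Oa), RLE size factors left 3 calls, and without αPD-1 + corin replicate 3 the only call was H2-Ab1. For cDC1-like cells H2-Ob differed by 2.01 ± 0.28 (adjusted p = 0.00388 in edgeR), 1 of 10 genes against 0.175% of all genes tested, and the macrophage-like values of H2-Ob include the UMIs in cells with B cell RNA.

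No difference from macrophage-like cells was called by edgeR for cDC2-like cells (unadjusted p under 0.05 in 3, DESeq2 0, 0.0% of all genes called), monocyte-like cells (2, DESeq2 0, 0.128%), melanoma-like cells (1, DESeq2 0, 0.0242%) or fibroblast-like cells (0, DESeq2 0, 0.0232%). In the same order, 799 of 10406, 1497 of 10932, 713 of 12418 and 1132 of 12933 genes had an unadjusted p under 0.05. Without αPD-1 + corin replicate 3, 6 genes were called higher in cDC2-like than in macrophage-like cells (H2-Aa, H2-Ab1, H2-Eb1, H2-DMb2, H2-Ob and Ciita), when 2.5% of genes were. In the same setting 6 were called higher in monocyte-like cells (H2-Aa, H2-Ab1, H2-Eb1, H2-DMb1, H2-DMb2 and Ciita), when 3.7% of genes were. These comparisons share the macrophage-like sums.

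The cells that carried the class II RNA differed between the groups (the plot of UMI shares). The 10 genes had 169856 to 194736 UMIs per αPD-1 library and 181746 to 262702 UMIs per αPD-1 + corin library over all kept cells. B-like cells held 24.7%, 25.0% and 28.2% of these UMIs in the αPD-1 libraries and 0.435%, 0.828% and 0.232% in the αPD-1 + corin libraries, a difference of -25.5 percentage points. They were 17.6%, 19.2% and 24.7% of the kept cells against 0.597%, 1.22% and 0.233%. Macrophage-like cells held 12.8%, 16.7% and 12.7% against 28.9%, 24.9% and 33.8% of the UMIs, a difference of 15.2 percentage points, and were 20.1%, 23.3% and 16.8% against 53.2%, 30.5% and 27.3% of the cells. For both lineages the groups did not overlap, and the two-sided exact permutation test over samples gave p = 0.1, 0.233 after Benjamini-Hochberg adjustment for each, where 0.1 is the smallest p that 3 samples against 3 allow.

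Monocyte-like cells held 7.50%, 14.9% and 9.99% of the UMIs in the αPD-1 libraries and 17.9%, 18.7% and 13.6% in the αPD-1 + corin libraries (p = 0.2, 0.35 after Benjamini-Hochberg adjustment, exact permutation test). cDC2-like cells held 5.20%, 7.08% and 5.01% against 14.0%, 10.4% and 7.02% (p = 0.2, 0.35 adjusted, exact permutation test). cDC1-like cells held 9.13%, 7.56% and 9.42% against 10.3%, 8.61% and 13.8% (p = 0.3, 0.467 after Benjamini-Hochberg adjustment, exact permutation test). The adjustment is over the 14 lineages. Neutrophil-like cells, which are no lineage of this set, held 0.449%, 0.583% and 0.458% against 15.3%, 22.0% and 1.00%, with the high values in replicates 1 and 2, where they were 8.35% and 30.4% of the cells. Summed over the 10 genes, the level in neutrophil-like cells was 10522, 16459 and 12654 CPM in the αPD-1 and 16705, 8649 and 6987 CPM in the αPD-1 + corin libraries. The mean was 7382 CPM in macrophage-like cells. Pooled over libraries, H2-Oa took 14.2% of the H2-Oa plus H2-DMa UMIs in neutrophil-like cells. That share was 14.6% in cDC1-like, 3.39% in macrophage-like and 2.12% in monocyte-like cells. Whether the neutrophil-like name holds for all of these cells was not tested. Cells of mixed clusters held part of the remaining UMIs and were kept in the total. These shares move with the number of cells of each lineage and with the rebuilt names. Without the upper limit on genes per cell, the difference for B-like cells was -16.7 percentage points.

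**Figure D5:**
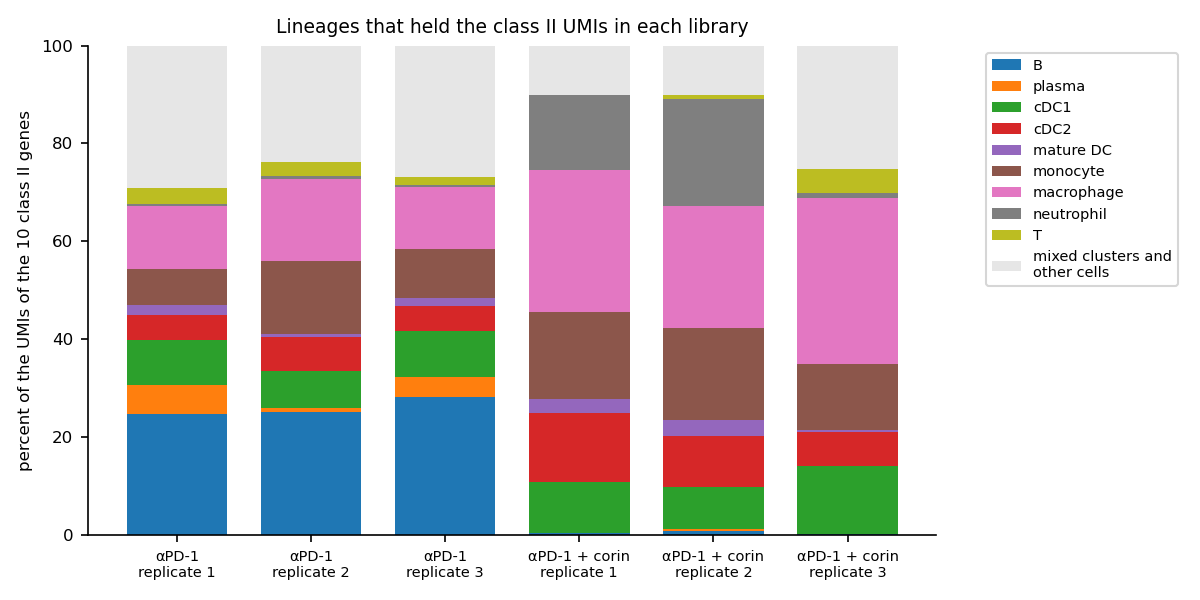
Stacked bars of the share of the UMIs of the 10 class II genes that fell in each lineage, in percent of those UMIs over all kept cells, with 1 bar per library. B-like cells hold 24.7 to 28.2% in the αPD-1 libraries and 0.232 to 0.828% in the αPD-1 + corin libraries, and macrophage-like cells 12.7 to 16.7% and 24.9 to 33.8%.

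Other genes of the pathway were described by 4 lists. Of 9 proteases and reductases that process antigen or the invariant chain (Ctss, Ctsl, Ctsb, Ctsd, Ctsh, Ctsz, Lgmn, Ifi30 and Sppl2a), none was called in B-like, cDC1-like, cDC2-like, macrophage-like, monocyte-like or melanoma-like cells. The median log2 fold change of the proteases was 0.55 in macrophage-like and 0.39 in monocyte-like cells, beside 0.01 and 0.00 over all genes tested. Ctsb, a lysosomal protease, was called higher in fibroblast-like cells, at 286, 256 and 358 CPM in the αPD-1 and 662, 818 and 680.2 CPM in the αPD-1 + corin libraries (log2 fold change 1.30 ± 0.28, adjusted p = 0.0376 in edgeR). Of the 17 regulators of class II transcription reported here, none of 16 tested was called in B-like cells and none in the other lineages apart from T-like cells. Of 7 genes of turnover and costimulation, Cd86, a ligand of CD28, was called higher in B-like cells, at 189, 161 and 205 CPM against 459, 396 and 367 CPM without overlap (log2 fold change 1.10 ± 0.23, adjusted p = 0.000655 in edgeR). The αPD-1 + corin levels of Cd86 come from sums of 61061, 88402 and 19065 UMIs, where 3 UMIs are 49.1, 33.9 and 157 CPM. In B-like cells the median was -0.17 over these regulators and -0.59 over 5 genes of turnover and costimulation, beside -0.17 over all genes. In T-like cells 4 genes of these lists were called higher, led by Irf8 (1.02 ± 0.17), and 4 lower, led by Ifngr2 (-1.62 ± 0.24), of 31 tested, where 9.51% of all genes were called higher and 12.6% lower. Of the list of other class II locus genes, H2-Eb2 was tested in B-like and macrophage-like cells and not called, and H2-Ea was not analysed here.

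Across the 14 lineages named in these libraries, the genes closest in pattern to the 10 were ranked by Pearson r of mean log2(CPM + 10) with the mean of the 10 genes, over 7250 genes with at least 50 CPM in some lineage. Napsa, an aspartic protease, had r = 0.958, with 770.3 CPM in cDC2-like and 272 CPM in B-like cells. Gm20513, a long noncoding RNA annotated within H2-Eb1 on the opposite strand, had r = 0.951, and its reads cannot be told apart from those of H2-Eb1 if counting ignored strand. Cd83, which stabilizes class II at the surface, had r = 0.933, followed by Pkib (0.929) and Pmaip1 (0.918). Each of the 10 genes, set against the mean of the others, had r between 0.850 (H2-Ob) and 0.987 (H2-Aa). These correlations describe 14 lineages of the same libraries, which differ in depth and share free RNA, and carry no test.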

How the data were processed

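scRNA-Seq was measured in 3 αPD-1 and 3 αPD-1 + corin samples. The authors aligned reads with Cell Ranger 8.0 to GRCm39 and deposited raw UMI counts per gene and barcode, without normalization, for called cells (submitters' notes also name Seurat 5.0.11). The protocol names about 23000 loaded cells without saying whether that is per sample, and the files hold 52899 barcodes in all. Strand use in counting is not given in the sources used here.

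Following the study's limits, barcodes with under 600 or over 4000 genes or with over 10% of UMIs from mitochondrial genes were dropped. The lowest total of any barcode was 500 UMIs. Non-immune cells, which the study removed, were kept. The study used DoubletFinder. Here the barcodes with the highest Scrublet scores (scanpy 1.11.5) were removed at 0.4% per 1000 barcodes (2002, of which 1201 passed the other filters), because the automatic threshold marked 1 barcode. This left 28866 cells. After SCTransform (Seurat 5.3.0, sctransform 0.4.2), 20 principal components and clustering at resolution 0.8 gave 25 clusters, without the 10 genes and the markers, and the cluster of dendritic cells was clustered again. A name needed 3 markers with UMIs in 10% of cells and 1.5 times the CPM of the other clusters (pseudocount 10 CPM). Clusters with 2 UMIs each of T and B cell markers in 50% of cells were called mixed.

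UMI counts were summed per sample and lineage where every sample had 10 cells, and each sum was compared over all genes by quasi-likelihood tests in edgeR 4.0.16 (TMM, filterByExpr, Benjamini-Hochberg, threshold 0.05). Log2 fold changes are αPD-1 + corin over αPD-1. The sums held 19065 to 16145834 UMIs, and intervals and limits cover counting error only. Shares of UMIs were compared by exact permutation tests. Scripts were tested on simulated data. Promoter letters came from RefSeq (GRCm38.p6). The 10 genes and the lists of markers and pathway genes were chosen with earlier results of these data known. 1 gene of the list of class II regulators is not reported here, and the counts and medians of that list leave it out. Named genes are the 10 genes, pathway genes past the threshold (at most 3 each way per lineage) and the 5 genes closest in pattern.

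Alternatives were LogNormalize, marker genes and the 10 genes kept in the clustering, resolutions 0.4 and 1.2, doublets kept, the upper gene limit lifted, a mitochondrial limit of 5%, cells with a B marker UMI left out, tests by DESeq2 1.42.0, edgeR with RLE size factors or with all genes unfiltered, a replicate block, and omission of single samples. Tests within clusters were added after seeing the data. R 4.3.3 and Python 3.11.15 were used, and MAST, SingleR and gene set tests were not.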

Additional observations from a re-analysis of the deposited data

Results flagged for a closer look

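The effect of corin on 5 class II genes differed between B-like and macrophage-like cells in edgeR's quasi-likelihood test of the difference itself. The difference of log2 fold changes was -1.26 ± 0.21 (SE) for H2-Aa, with an adjusted p of 1.35e-06. It was -1.27 ± 0.22 for H2-Ab1 (2.64e-06), -0.91 ± 0.21 for H2-Eb1 (0.00286), -1.42 ± 0.42 for H2-Oa (0.0351) and -1.11 ± 0.20 for Cd74 (1.08e-05). The median difference over all genes was -0.54, so part of these differences is shared by genes at large. In this fit 1.98% of 11283 genes were called lower. Medians over all genes in the own fits were -0.17 in B-like and 0.01 in macrophage-like cells. In their own fits the 5 genes had log2 fold changes of -0.67, -0.65, -0.53, -1.09 and -0.41 in B-like cells and 0.41, 0.43, 0.26, 0.02 and 0.43 in macrophage-like cells. Without αPD-1 + corin replicate 3, H2-Ab1 was the only one of these calls left. DESeq2 called none of the 4 to which it gave an adjusted p (none was given for H2-Oa), and RLE size factors left 3 calls. The SE of the difference for H2-Aa was smaller than the 0.33 of the macrophage-like fit alone, and the fit of the difference has the sample as a block. The p-values of the B-like difference track a normal law, so they take little from a gene's own spread between the samples. H2-Ob differed between cDC1-like and macrophage-like cells by 2.01 ± 0.28 on the log2 scale (adjusted p = 0.00388 in edgeR). In the αPD-1 macrophage-like sums, cells with a B cell marker UMI held 80.8 to 83.9% of the H2-Ob UMIs. With such cells left out, its macrophage-like log2 fold change was 0.55 instead of -1.29, beside 0.70 in all cDC1-like cells. The difference between the lineages was not tested without these cells.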

How the results depend on the processing

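The numbers of genes called out of 10 changed with the processing as follows, and the cause was not tested. For most of these settings the share over all genes is not given, so the counts are not results about the 10 genes. That share moved too: in macrophage-like cells, 36 of 11556 genes were called lower over all libraries. Without αPD-1 + corin replicate 3 there were 1266 of 11692. In B-like cells (4 over all libraries), 0 were called with the 10 genes and markers kept in the clustering and at resolution 1.2, 2 with no upper limit on genes, 7 by DESeq2, 7 with no filter on low counts, 7 within B cluster 2, and 0 to 5 with 1 sample left out. With no filter on low counts there were 1 in cDC1-like, 5 in cDC2-like, 1 in macrophage-like, 5 in monocyte-like, 1 in melanoma-like, 1 in fibroblast-like and 6 in T-like cells. DESeq2 called 1 in macrophage-like and 1 in monocyte-like cells. A mitochondrial limit of 5% gave 1 in macrophage-like cells. In monocyte-like cells LogNormalize gave 3 and keeping the 10 genes and markers in the clustering gave 2. In T-like cells (3) LogNormalize gave 0, resolution 0.4 gave 1 and leaving out cells with a B marker UMI gave 0. With 1 sample left out the counts were 0 to 1 in cDC1-like, 0 to 4 in cDC2-like, 0 to 2 in macrophage-like, 0 to 5 in monocyte-like and 2 to 6 in T-like cells. For the difference from macrophage-like cells, the counts for B-like cells (5) were 0 by DESeq2, 3 with RLE size factors and 1 to 5 with 1 sample left out. For cDC1-like cells (1) they were 2 with no filter and 1 to 2 with 1 sample left out, for cDC2-like cells (0) 2 and 0 to 6, and for monocyte-like cells (0) 1 and 0 to 6. Without αPD-1 replicate 1 the B-like difference was called for 3 genes.

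Of 1769 values of single genes under an alternative, 1632 kept their side of the threshold, 51 lost a call and 81 gained one, and 140 without a call in either changed sign. Cd74 in T-like cells changed direction to 0.83 with LogNormalize, 0.21 with genes kept in the clustering, 0.14 at resolution 0.4, 0.18 with no upper limit and 0.22 without B marker cells. Shares of UMIs changed direction to -0.56 percentage points for monocyte-like cells with no upper limit, and to 4.56 for T-like cells with LogNormalize. For NK-like cells the difference was 0.00 with no upper limit, which is no change of direction. With 1 sample left out the T-like difference ranged from -2.22 to 0.15, the highest without αPD-1 + corin replicate 1, and the pDC-like difference from -0.18 to 0.84, the lowest without αPD-1 + corin replicate 2. In B-like cells all 170 values were negative, and in cDC2-like cells 189 of 190 were positive. Within a lineage these values come from the same libraries and are not independent.

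The replicate numbers are shared between the groups, but they did not pair the samples: over 24 pairs of same-numbered sums in 8 lineages, 1 correlation of deviations was over 0.1 (r from -0.171 to 0.125). With the replicate block, 2 genes were called in B-like, 2 in monocyte-like and 4 in T-like cells, and 0 in the other 5 lineages. The share of all genes called with the block is not given either.

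No fit was possible for B-like cells at a mitochondrial limit of 5%, where αPD-1 + corin replicate 3 kept under 10 cells, for B-like and fibroblast-like cells without B marker cells, or for mature DC-like cells except without αPD-1 + corin replicate 3. Of the lineages tested over all libraries, the B-like sums of the αPD-1 + corin libraries were the shallowest, at 19065 to 88402 UMIs, and the untested mature DC-like sum of αPD-1 + corin replicate 3 held 13263 UMIs.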
